A study of Mus musculus with 8 samples.

Results

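Wild-type mouse embryos of embryonic day 12 (E12) were compared with those of embryonic day 8.5 (E8.5) on Affymetrix mouse whole-genome expression arrays. The comparison takes the 2 arrays titled E12 wt and the 2 titled E8.5 wt, which are 4 of the 8 arrays of the study. The other 4 arrays are Runx1 knockout embryos of the same stages, with 2 per stage, and they also enter the fit, where they help to set the spread behind each p-value. The source of all samples is labelled embryo proper, which is the embryo without its extraembryonic membranes, and the RNA is total RNA that was amplified before labelling. All embryos came from a Runx1 line kept on the BALB/c background. For the wild-type embryos the labels and the study name no other allele and no treatment. The study describes the replicates as biological, and the labels do not say how many embryos were used for an array, so p-values here reflect the spread of these arrays. In RNA of whole embryos, fewer cells of a type and less RNA per cell cannot be told apart.

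At E8.5 the mouse embryo is at early somite stages. The neural folds are closing, the heart tube begins to beat, and the first blood cells form in the yolk sac. By E12 the main organs are laid down. Neurons are being born along the neural tube, muscle fibres differentiate in the trunk and limb buds, cartilage and connective tissue condense, and the liver makes blood. Visceral endoderm, the outer layer of the early conceptus and later of the yolk sac, takes up maternal proteins and secretes plasma proteins before the liver does. The RNA-binding protein Lin28a belongs to the early embryo, where it holds back the let-7 microRNAs, and Hox genes are switched on in order along the trunk and limbs as the embryo grows.

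The scale of the arrays differed between the stages. The 99th percentile of log2 intensity was 12.28 and 12.29 in the E8.5 arrays and 10.51 and 11.09 in the E12 arrays, whereas the medians were 4.96 and 5.01 against 5.2 and 5.16. Bright genes therefore read lower at E12 as a class. In the brightest 10% of probe sets the median difference was -1.17, and 1964 of 4504 were called lower against 57 higher. After quantile normalization, which gives all arrays the same distribution, that median was -0.04. For this reason each gene was also placed by its percentile within its own array, and calls are given on the deposited scale and on both scales, meaning in the same direction on deposited and on quantile-normalized values. A probe set was called where the limma adjusted p was below 0.05. The E8.5 arrays also differed more from each other than the E12 arrays did (r = 0.927 and 0.965 over probe sets, which are not independent). E8.5 replicate 2 had poly-A control probe sets at a mean of 11.97, against 7.65 in replicate 1 and 5.14 and 5.70 in the E12 arrays. E8.5 replicate 1 read 11.51 for Xist, the RNA of the inactive X chromosome, and 2.60 for the Y-linked Eif2s3y, where the other wild-type arrays read 5.12 to 6.25 and 6.30 to 9.05.

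**Figure D1:**
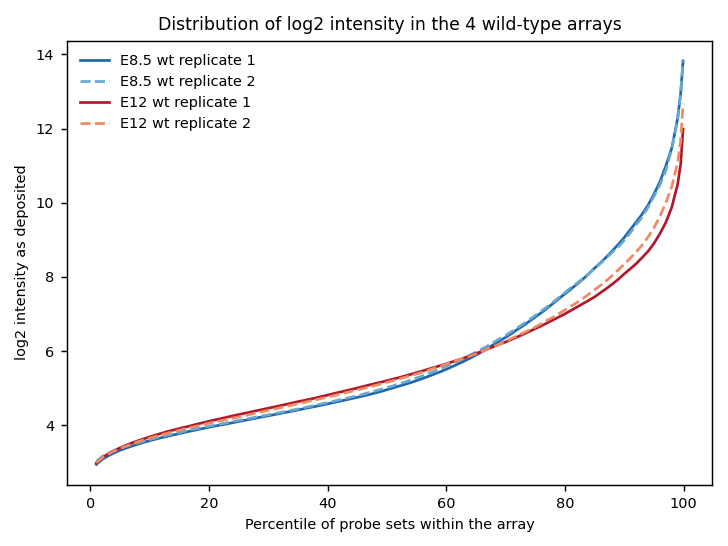
Log2 intensity as deposited (vertical axis) at each percentile of the probe sets of the same array (horizontal axis), with 1 line for each of the 4 wild-type arrays, blue for E8.5 and red for E12. The lines run together up to the middle of the distribution and part at the upper end, where the 99th percentile lies at 12.28 and 12.29 for E8.5 and at 10.51 and 11.09 for E12.

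Of 45037 probe sets, 7971 (17.7%) were called between the stages with limma on the deposited scale, 2979 higher (6.61%) and 4992 lower (11.1%) at E12. Thus 37.4% of the calls were higher. After quantile normalization 5032 were called and 55.1% of them were higher, and after within-array ranks were turned to normal scores 3377 were called, with 58.2% higher, so the balance of direction depends on the scale. A shift of each array to the same median moved the median over all probe sets from -0.01 to -0.20 and gave 8685 calls, of which 24.7% were higher. At the moderated t that the study took as its threshold, 3 in absolute value, 10522 probe sets (23.4%) differed. With 1 probe set per gene, 4246 of 18193 genes (23.3%) were called, 1589 higher (8.73%) and 2657 lower (14.6%). On both scales 1230 genes (6.76%) were higher and 944 (5.19%) were lower. After quantile normalization 2607 genes (14.3%) were called. The counts depended on the arrays in the fit. With the 4 wild-type arrays alone 2061 probe sets were called, and 388 after quantile normalization, while all 8 arrays without weights gave 12525. Leaving out either E12 knockout array gave 5505. Without E12 replicate 1 the count of probe sets called was 2088, and without each of the other wild-type arrays it was 5331 to 6742.

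The genes with the largest increases included Zic1 and Nefm of the nervous system, Alb and Serpina6 of the blood plasma and Myl2 and Myh3 of striated muscle, although more plasma protein genes fell than rose, as given below. Zic1, a zinc-finger transcription factor of the dorsal neural tube, read 2.99 and 2.80 at E8.5 and 8.45 and 9.75 at E12. It went from percentiles of 1.28 and 0.103 to 92.6 and 96.3 within the arrays and rose by 6.20 on the log2 scale (SE 0.46, limma adjusted p = 0.0011). Both E12 arrays lay far above both E8.5 arrays. Fabp7, a fatty acid binding protein of radial glia, read 3.01 and 4.14 at E8.5 and 8.80 and 10.13 at E12. Alb, serum albumin, was at 4.55 and 4.42 at E8.5 and at 10.13 and 10.33 at E12. Its replicates lay close together, and the difference was 5.75 (SE 0.509, adjusted p = 0.00231). Serpina6, the plasma carrier of corticosteroids made in the liver, followed with 3.73 and 3.66 against 9.19 and 9.08. Pf4, a chemokine of platelet granules, read 5.27 and 5.08 at E8.5 and 10.31 and 10.79 at E12 (5.37, SE 0.25, adjusted p = 0.000328). Nefm, a neurofilament subunit of neurons, read 3.59 and 4.41 against 8.72 and 9.70.

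The other genes among the 15 with the largest increase were 6330403K07Rik (5.19), Armc8 (5.13), S1pr3 (4.99), a receptor for sphingosine-1-phosphate, Bcl11b (4.97), a zinc-finger factor of neurons, skin and thymus, the noncoding RNA Miat (4.90), the large cadherin gene Fat4 (4.83), Myl2 (4.82), the regulatory light chain of ventricular myosin, Prdm16 (4.73) and Myh3 (4.72), the embryonic heavy chain of skeletal muscle myosin. In all 15 genes the groups did not overlap, which the choice of the genes required, and all 15 were called on both scales. For Armc8 only 1 of 5 probe sets had this sign, so its increase rests on 1 probe set. S1pr3 read 3.34 in E8.5 replicate 1 and 6.28 in replicate 2, and Myh3 read 5.50 and 3.49, so their sizes depend on the array chosen. Without E8.5 replicate 1 and without replicate 2 S1pr3 rose by 3.52 and 6.46.

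The genes with the largest decreases included Cubn, Amn, Rhox5 and Spink1 of the visceral endoderm list, and some passed from the very top of the arrays to low levels. Cubn, the receptor cubilin that takes up vitamin B12 and proteins, read 13.07 and 12.99 at E8.5 and 4.11 and 3.87 at E12. Its percentile was 99.6 and 99.5 at E8.5 and 20.2 and 15 at E12. It fell by 9.04 on the log2 scale (SE 0.286, limma adjusted p = 0.000177), the largest change of any gene, and by 8.29 after quantile normalization. Amn, the membrane partner of cubilin, read 10.94 and 10.67 at E8.5 and 4.13 and 3.99 at E12 (-6.75, SE 0.237, adjusted p = 0.000182). The 2 genes whose products form 1 receptor thus fell together, and the replicates of each lay close together. Trap1a read 12.61 and 10.63 at E8.5 and 3.49 and 3.31 at E12. Phlda2, an imprinted gene that restrains growth of the placenta, read 13.20 and 12.41 against 5.67 and 5.2 (-7.37, SE 0.355, adjusted p = 0.000328). Apob, the structural protein of lipoproteins, read 11.37 and 13.13 against 5.65 and 5.31. Lin28a read 11.16 and 10.93 at E8.5 and 4.79 and 4.69 at E12 (-6.30, SE 0.291, adjusted p = 0.000328), both its probe sets fell, and its percentile fell from 97.4 and 97.1 to 39.5 and 38.1.

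The other genes among the 15 with the largest decrease were the X-linked homeobox gene Rhox5 (-6.56), the carbonic anhydrase Car4 (-6.37), the imprinted gene Sfmbt2 (-6.25), the trypsin inhibitor Spink1 (-6.10), the desmosome protein Pkp2 (-5.81), the membrane glycoprotein Emb (-5.77), Mageb16 (-5.77), Prl4a1 (-5.61), a prolactin-family gene of the placenta, and the glucose transporter Slc2a2 (-5.59). Of these 15, 14 were called on both scales. The exception was Prl4a1, which read 12.47 in E8.5 replicate 1, 6.80 in replicate 2 and 4.03 and 4.02 at E12. Its difference was -2.78 without E8.5 replicate 1 (adjusted p = 0.0783) and -8.45 without replicate 2. Sfmbt2 (12.61 and 8.68 at E8.5) and Mageb16 (11.50 and 8.25) also read much higher in replicate 1. They were -4.29 and -4.14 without it, and neither was called without E12 replicate 1 (adjusted p = 0.0717 and 0.066).

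**Figure D2:**
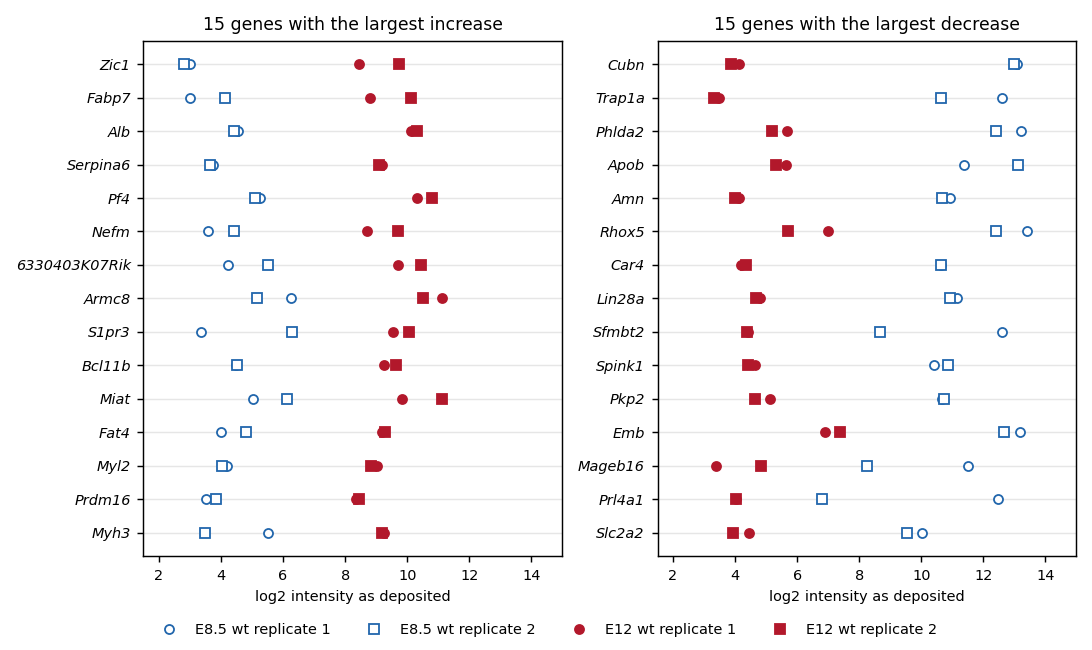
Log2 intensity as deposited (horizontal axis) of the 15 genes with the largest increase (left) and decrease (right) from E8.5 to E12, with 1 symbol per wild-type array, open blue for E8.5, filled red for E12, circles for replicate 1 and squares for replicate 2. Cubn lies at 13.07 and 12.99 at E8.5 and at 4.11 and 3.87 at E12, and Prl4a1, Sfmbt2 and Mageb16 show the 2 E8.5 arrays far apart.

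Most neuron genes rose. Of 55 measured, 40 rose, none fell and 36 rose on both scales, against 8.73% and 6.76% of all genes. The median difference was 1.92, and -0.01 over all genes. Their median percentile went from 35.1 and 40.6 in the E8.5 arrays to 75.7 and 75.3 in the E12 arrays. In 50 of the 55 both E12 percentiles lay above both E8.5 percentiles, as they did in 34.7% of all genes. The microtubule-associated protein Dcx of migrating neurons read 3.69 and 3.45 at E8.5 and 7.46 and 8.81 at E12. Stmn3, a tubulin-binding protein of neurons, read 4.66 and 5.21 against 9.57 and 9.65 (4.67, SE 0.295, limma adjusted p = 0.000811). Nefl, the light neurofilament, read 3.71 and 5.14 against 8.99 and 9.21, and Dpysl3, a growth cone protein, read 4.86 and 6.12 against 9.37 and 10.26. Leaving out each wild-type array gave 33 to 38 neuron genes called higher.

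More genes of neural progenitors rose than fell. Of 39 measured, 13 rose and 2 fell (8.73% and 14.6% of all genes), 11 and 2 of them on both scales (6.76% and 5.19%). Called or not, 31 read higher and 8 lower at E12, with a median difference of 0.77. Besides Zic1 and Fabp7, the Notch target Hes5 (3.89 and 5.78 against 7.40 and 7.66), the cortical homeobox gene Emx2 (3.60 and 3.23 against 6.38 and 5.69) and the proneural gene Neurog1 (3.61 and 3.79 against 6.20 and 6.27) rose. The 2 that fell were Lin28a and Sall4, a zinc-finger factor shared with pluripotent cells. Sall4 read 11.90 and 11.11 at E8.5 and 7.98 and 7.87 at E12. Of 29 neural crest and ganglion genes 11 rose, 9 on both scales, and none fell, against the same shares over all genes. Tfap2b, a transcription factor of the crest, read 4.65 and 4.69 against 7.36 and 7.66 and the neurotrophin receptor Ntrk2 read 6.12 and 5.89 against 8.54 and 8.69. Among 35 axon guidance genes 11 rose, all 11 on both scales, and none fell, against these shares as well. Epha3, an ephrin receptor, led them with 3.64 and 3.41 against 6.98 and 7.76. Sema3f, a repellent semaphorin, was already at 9.23 and 7.47 at E8.5 and read 11.21 and 11.03 at E12. Leaving out E12 replicate 1 or E8.5 replicate 1, the axon guidance count was 3 and 6, the neural crest count 4 and 6 and the progenitor count 7 and 8.

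Most skeletal muscle genes rose. Of 42 measured, 24 rose (8.73% of all genes did), 22 of them on both scales (6.76%), and none fell (14.6%). The median difference was 1.59. Myog, the transcription factor that drives muscle differentiation, read 4.15 and 4.31 at E8.5 and 8.48 and 7.36 at E12 (3.69, SE 0.436, limma adjusted p = 0.00438). Tnnc2, troponin C of fast muscle, read 4.01 and 3.60 against 7.53 and 7.79. Acta1, skeletal actin, read 5.4 and 4.95 against 8.63 and 8.91. The regulator Myog, the thin filament and the thick filament gene Myh3 were thus all higher at E12. The count was 11 without E12 replicate 1 and 15 without E8.5 replicate 1. Of 32 heart genes 12 rose and 2 fell, 11 and 0 on both scales. The share that fell was below the 14.6% of all genes. Myh7, the slow and fetal ventricular myosin, read 4.81 in E8.5 replicate 1 and 7.40 in replicate 2, and 10.08 and 9.59 at E12. Nppa, the atrial natriuretic peptide, read 4.16 and 4.01 against 7.74 and 7.54, and the cardiac troponin Tnnc1 6.56 and 6.13 against 9.21 and 9.17. The 2 called lower on the deposited scale were the calcium pump Atp2a2 (-1.61) and the transcription factor Hand1 (-2.31). After quantile normalization they were at -0.20 and -1.77 (limma adjusted p = 0.684 and 0.0909). Hand1, also on the trophoblast list below, read 9.95 and 7.66 at E8.5 and 6.50 and 6.48 at E12. Its difference was -1.17 without E8.5 replicate 1. The heart count was 4 and 5 without E12 and E8.5 replicate 1.

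The bases before the start of 2 of these muscle genes and of 2 genes that fell are shown, since they hold the short motifs counted below. Each stretch is the 120 bases just before the transcription start in RefSeq (build GRCm38.p6), printed 5′ to 3′ on the gene's strand. Capitals mark matches to the CArG box and TATAAA in Acta1, to TATAAA in Myh3, to TATAAA and GGGCGG in Phlda2 and to GGGCGG or its reverse complement and CAGCTG in Amn. Acta1 lies at chr8:123894776-123894895 (minus strand), Myh3 at chr11:67078180-67078299 (plus strand), Phlda2 at chr7:143502525-143502644 (minus strand) and Amn at chr12:111270976-111271095 (plus strand).
Acta1: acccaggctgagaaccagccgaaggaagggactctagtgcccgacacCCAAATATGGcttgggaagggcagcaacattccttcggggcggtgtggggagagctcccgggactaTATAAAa
Myh3: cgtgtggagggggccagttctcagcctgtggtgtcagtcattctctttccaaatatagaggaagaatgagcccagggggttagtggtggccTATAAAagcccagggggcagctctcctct
Phlda2: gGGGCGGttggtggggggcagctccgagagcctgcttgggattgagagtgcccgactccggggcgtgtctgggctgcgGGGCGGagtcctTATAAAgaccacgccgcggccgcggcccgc
Amn: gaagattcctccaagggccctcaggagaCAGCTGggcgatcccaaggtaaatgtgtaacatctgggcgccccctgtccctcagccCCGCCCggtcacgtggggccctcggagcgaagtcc

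The 250 bases before the start were searched on both strands for TATAAA, for GGGCGG, for CCAAT, for CAGCTG and for the CArG box, in genes with 1 start in the RefSeq table. Of 22862 such genes 13.6% held TATAAA and 32.4% held GGGCGG. Among the 11791 of them on the arrays the shares were 9.25% and 50.3%. TATAAA was found in 86 of 750 genes higher on both scales (11.5%) and in 26 of 643 genes lower on both scales (4.04%). GGGCGG was found in 46.7% and 64.2% of the same sets. Skeletal muscle genes, called or not, held TATAAA in 7 of 27, CAGCTG in 9 of 27 (12.6% of the genes on the arrays) and the CArG box in 3 of 27 (1.21%), and cell cycle genes held TATAAA in 0 of 38 and CCAAT in 27 of 38 (36.1%). A match is no more than these letters in the window, and no test was made of the shares.

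Many collagens and other matrix genes rose. Of 47 measured, 23 rose and 2 fell (8.73% and 14.6% of all genes), 21 and 0 on both scales (6.76% and 5.19%). Their median percentile went from 52.0 and 62.6 to 88.8 and 84.7. Tgfbi, an adhesive matrix protein, read 4.29 and 4.77 at E8.5 and 8.90 and 8.62 at E12 (4.23, SE 0.251, limma adjusted p = 0.000766). The small proteoglycan Dcn read 4.11 and 4.97 against 7.92 and 8.79. Col3a1, a fibrillar collagen of soft tissue, read 7.36 and 8.38 against 11.31 and 11.69, and the microfibril protein Mfap2 read 6.39 and 6.69 against 10.09 and 10.40. The 2 that were called lower on the deposited scale were both chains of basement membrane collagen. Col4a1 read 12.80 and 11.96 against 9.52 and 9.41, and Col4a2 read 10.78 and 10.05 against 8.22 and 7.42, and after quantile normalization the adjusted p was 0.0505 and 0.077. Among 32 cartilage and bone genes 7 rose and 1 fell, 6 and 0 on both scales, against the same shares over all genes. Col2a1, the main collagen of cartilage, read 5.13 and 6.01 against 8.45 and 7.82, and Col11a1 read 3.42 and 3.62 against 7.38 and 7.57. Sox9, the transcription factor of cartilage formation, read 4.91 and 4.85 against 7.98 and 8.19. The counts of higher genes were 11 for the matrix and 2 for cartilage and bone without E12 replicate 1, and 16 and 4 without E8.5 replicate 1.

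Among Hox genes, 7 posterior ones, of the limbs and tail, and 3 anterior ones rose, where 8.73% of all genes did. Those 7, of 14 posterior genes, were all called on both scales, the list having a median of 1.5, and the 19 anterior genes had a median of 0.72. The posterior count was 3 without E12 replicate 1, and the difference between the lists was not tested. Hoxc10 read 4.28 and 4.78 at E8.5 and 8.89 and 8.59 at E12 (4.21, SE 0.255, limma adjusted p = 0.000766). Hoxd13, a gene of the digits, read 4.23 and 4.55 against 8.0 and 8.4, and Hoxd10 read 3.83 and 4.49 against 7.01 and 6.96. Hoxa5, the leading anterior gene, read 6.52 and 7.08 against 10.40 and 9.55. The anterior list differed greatly between the E8.5 arrays, with a mean log2 level of 4.63 in replicate 1 and 7.00 in replicate 2, against 6.68 and 6.65 at E12. Without replicate 1 its median difference was -0.21, with 2 genes higher and 4 lower, and without replicate 2 it was 2.26, with 13 higher. Genes of presomitic mesoderm and segmentation also parted the E8.5 arrays, at 5.01 and 6.76. Of 34, 3 rose and 2 fell, which is not above the shares over all genes by more than a fraction (8.73% and 14.6%). Without E8.5 replicate 1, 9 fell and the median was -0.59, and without replicate 2, 7 rose and the median was 0.85. Cdx2, a caudal homeobox gene, read 7.59 and 8.57 at E8.5 and 4.50 and 4.28 at E12, and fell on both scales.

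Of 31 limb patterning genes 9 rose and 1 fell, 8 and 0 on both scales. Of all genes 8.73% rose and 14.6% fell, and 6.76% and 5.19% did so on both scales. Besides Hoxd13, Shox2 (4.67 and 4.47 against 7.35 and 7.23) and Prrx1 (3.54 and 6.35 against 7.46 and 8.51), homeobox genes of limb mesenchyme, rose. Without E8.5 replicate 1, 3 rose and 5 fell, and without E12 replicate 1, 4 rose. Among 41 Wnt pathway genes 10 rose, 8 on both scales, and none fell. These included the agonist Rspo2 (4.09 and 3.98 against 6.77 and 7.06), the antagonists Wif1 (2.94 and 3.0 against 5.87 and 5.77), Dkk2 (3.42 and 3.77 against 5.99 and 6.91) and Sfrp1 (4.75 and 7.17 against 8.28 and 8.48), and the receptor Fzd1 (5.38 and 6.44 against 8.29 and 8.35). Both agonists and antagonists were thus among the genes that rose, and the count was 3 and 5 without E12 and E8.5 replicate 1. Of 14 hedgehog pathway genes 3 rose and 1 fell, on both scales alike, and the 2 leading ones were the co-receptors Cdon (5.71 and 6.35 against 8.38 and 9.02) and Boc (6.16 and 6.24 against 8.43 and 8.43), the first with 1 of 2 probe sets of this sign. Of 31 BMP, Nodal and TGF-beta genes 6 rose and 4 fell, 5 and 1 on both scales, and the share that fell was near that of all genes. Gdf10 led with 4.18 and 4.05 against 8.48 and 7.92, and Bmp6 (6.72 and 6.70 against 5.37 and 4.78) fell on both scales. Leaving out E12 replicate 1, 2 of them were higher and 1 was lower, and without E8.5 replicate 2 the hedgehog count was 6. Of 17 retinoic acid genes 2 rose and 3 fell, near the shares over all genes, and 1 and 1 did on both scales. The 2 degrading enzymes of that pathway moved apart, Cyp26b1 at 5.04 and 4.92 against 6.86 and 6.98 and Cyp26a1 at 9.54 and 8.73 against 7.77 and 7.28, the latter with an adjusted p of 0.162 after quantile normalization. Of 21 FGF genes 1 rose and 1 fell on the deposited scale, below the shares over all genes. The one that fell was Etv5 (-1.46), a target of FGF signalling, and it fell on both scales.

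Several red-cell genes rose, whereas the embryonic globins did not pass the test. Hbb-bh1, an embryonic globin, read 12.78 and 14.29 at E8.5 and 11.86 and 13.19 at E12, among the brightest probe sets of each array, and Hbb-y read 9.02 and 13.61 against 12.60 and 13.34 (limma adjusted p = 0.303 and 0.376). Hbb-b2, an adult globin, read 4.09 and 4.17 against 6.39 and 6.49 and rose by 2.31 (SE 0.312, adjusted p = 0.00621). It shares near-identical sequence with other globin genes, so its probe set may read more than 1 of them. Of 3 adult globins measured, Hbb-b2 was the 1 called, and the other 2 read lower at E12 without a call. The median of that list was -0.07, and -0.27 after quantile normalization. Of 26 red-cell genes 8 rose (8.73% of all genes did), 7 on both scales (6.76%), and none fell (14.6%). Slc4a1, the anion exchanger of the red-cell membrane, read 4.28 and 7.23 at E8.5 and 9.73 and 10.68 at E12. Rhag, a part of the Rh complex, read 3.37 and 3.52 against 7.38 and 8.19, and the erythroid nuclear gene Hemgn read 4.53 and 7.02 against 9.03 and 10.32. The list's mean level was 6.27 and 7.12 at E8.5 and 7.85 and 8.32 at E12. E8.5 replicate 2, the array with high poly-A controls, held the higher level of the pair, and without it 14 genes rose, whereas 5 rose without E12 replicate 2. A part of the poly-A controls in this was not tested.

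Some genes of megakaryocytes and of macrophages rose, and the lists went from a mean log2 level of 5.04 and 5.28 at E8.5 to 6.60 and 6.43 at E12 for the first list and from 4.74 and 4.61 to 5.93 and 5.63 for the second. Of 22 megakaryocyte and platelet genes 9 rose, 8 on both scales, and none fell. Ppbp, a platelet chemokine, read 3.98 and 3.72 against 7.16 and 7.6, and Tubb1, the tubulin of platelets, read 4.18 and 4.63 against 7.16 and 7.08. Of 37 macrophage and granulocyte genes 15 rose, 11 on both scales, and none fell. Mpo, the peroxidase of granulocytes, read 4.24 and 4.13 against 8.38 and 7.63 (3.82, SE 0.321, limma adjusted p = 0.00184). Lyz1, a lysozyme, read 3.79 and 3.24 against 7.39 and 6.89, and Ctss, a lysosomal protease, 4.43 and 4.22 against 7.86 and 7.80. The counts were 5 and 6 without E12 replicate 1. Of 20 blood stem and progenitor genes 4 rose and 2 fell, against 8.73% and 14.6% of all genes, and 4 and 1 did on both scales. Mecom, a zinc-finger factor of stem cells, read 3.65 and 6.38 against 8.81 and 9.33, and Sox17, a factor of endoderm and of blood-forming endothelium, read 9.32 and 9.14 against 5.80 and 5.43. Without either E12 array 0 stem and progenitor genes were called higher. Runx1 itself read 6.16 and 5.95 at E8.5 and 7.06 and 6.39 at E12, a difference of 0.67 (SE 0.362, adjusted p = 0.254), with 3 of 6 probe sets going this way. Among 13 genes of the RUNX family, its partners and cofactors, Ets1 rose (7.27 and 6.44 against 8.66 and 9.07), and Tle3 was called lower on the deposited scale only (-0.93, and -0.07 after quantile normalization). With 1 higher and 1 lower, this list did not stand above the shares over all genes.

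Of 30 endothelial genes 3 were higher and 3 lower, 3 and 1 on both scales, which does not stand apart from the 8.73% and 14.6% of all genes. Prox1, the lymphatic regulator that is also made in liver and lens, read 4.25 and 3.61 against 5.53 and 5.39. Cdh5, the cadherin of endothelial junctions, read 10.09 and 7.08 at E8.5 and 5.84 and 5.18 at E12. Etv2, the early factor of blood and vessel precursors, read 7.22 and 9.38 against 6.20 and 5.84. The call for Cdh5 and for Etv2 was lost after quantile normalization (limma adjusted p = 0.0617 and 0.0753). Flt1, a receptor of vascular growth factor, was lower on both scales, at 7.36 and 7.06 against 5.95 and 6.12. Limma called 0 endothelial genes without E12 replicate 1.

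Visceral endoderm genes fell, and the E8.5 arrays held them at high levels although the samples are labelled embryo proper. Of 20 measured, 12 fell (14.6% of all genes did), 11 on both scales (5.19%), and none rose. The median difference was -2.72, and -2.12 after quantile normalization. The median percentile was 92.5 and 91.6 in the E8.5 arrays and 63.5 and 55.0 in the E12 arrays, and the mean log2 level went from 9.20 and 9.21 to 6.22 and 5.91. The 2 E8.5 knockout arrays had means of 9.07 and 9.29, so the level was alike in all E8.5 arrays. Lrp2, a large uptake receptor that acts with cubilin, read 8.90 and 9.49 at E8.5 and 4.42 and 4.46 at E12 (-4.76, SE 0.293, limma adjusted p = 0.000766). With Cubn and Amn, 3 genes of 1 uptake machinery thus fell. Rhox5, Spink1 and Sox17 are members as well. Leaving out each wild-type array gave 9 to 13 members lower.

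Genes of liver and plasma proteins went both ways. Of 35 measured, 4 rose and 7 fell, against 8.73% and 14.6% of all genes. On both scales 3 rose and 7 fell, against 6.76% and 5.19% of all genes. Apob, Apoa4, Apoa1 and Apoc2, a part of the apolipoproteins of the list, fell. Apoa4 read 10.23 and 12.13 at E8.5 and 6.12 and 5.86 at E12, Apoa1 read 11.68 and 13.38 against 8.20 and 6.98, and Apoc2 read 11.19 and 12.16 against 6.88 and 5.36. Ttr, the carrier of thyroid hormone, read 13.20 and 13.64 against 9.05 and 8.57 (-4.61, SE 0.595, limma adjusted p = 0.00563), with all 4 probe sets of this sign, and Rbp4, the carrier of retinol, read 12.32 and 13.26 against 8.5 and 8.21. In the other direction Itih2 (4.48 and 4.07 against 7.28 and 7.18), a matrix-stabilizing plasma protein, and Vtn (4.44 and 4.58 against 7.08 and 6.84), vitronectin, rose with Alb. These apolipoproteins, Ttr and Rbp4, which the visceral endoderm also makes, and Alb thus moved in opposite directions. The number higher was 2 without E12 replicate 1 and 6 without E8.5 replicate 2, and the list median ran from -0.75 without E8.5 replicate 1 to 0.41 without replicate 2. Apob, Apoa4, Apoa1 and Apoc2 all read higher in E8.5 replicate 2 than in replicate 1.

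Some keratins and junction genes of simple epithelia fell, and some keratins of stratified skin rose. Of 36 measured, 13 fell and 4 rose, against 14.6% and 8.73% of all genes. On both scales 12 fell and 4 rose, against 5.19% and 6.76% of all genes. The keratins of simple epithelia Krt8 (13.70 and 12.85 against 8.33 and 7.79) and Krt18 (13.06 and 12.47 against 7.32 and 7.09) fell by 5.22 and 5.56. The desmosome genes Dsg2 (-4.83) and Dsp (11.18 and 11.11 against 7.34 and 7.21) fell with Pkp2, and the epithelial cadherin Cdh1 read 9.90 and 9.55 against 6.24 and 5.77. The 4 that rose were Krt5 (5.21 and 5.26 against 8.33 and 7.78), Krt15 (4.59 and 4.59 against 6.89 and 7.14), Krt14 (4.79 and 4.35 against 6.33 and 6.19) and Trp63 (3.77 and 4.34 against 6.21 and 6.44), the basal keratins of skin and the transcription factor of the basal layer. Leaving out each wild-type array gave 10 to 18 epithelial genes lower and 4 higher. Of 28 gut, lung and pancreas genes 7 rose and 6 fell, 4 and 6 on both scales, to be set against the same shares. Vil1, the villin of microvilli, read 8.02 and 9.14 against 4.40 and 3.72, and Neurog3, the factor of pancreatic endocrine precursors, read 4.85 and 4.47 against 6.96 and 6.83, with 1 of 2 probe sets of this sign. Without E8.5 replicate 1, 2 gut, lung and pancreas genes rose, and without either E12 array 3 did.

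**Figure D3:**
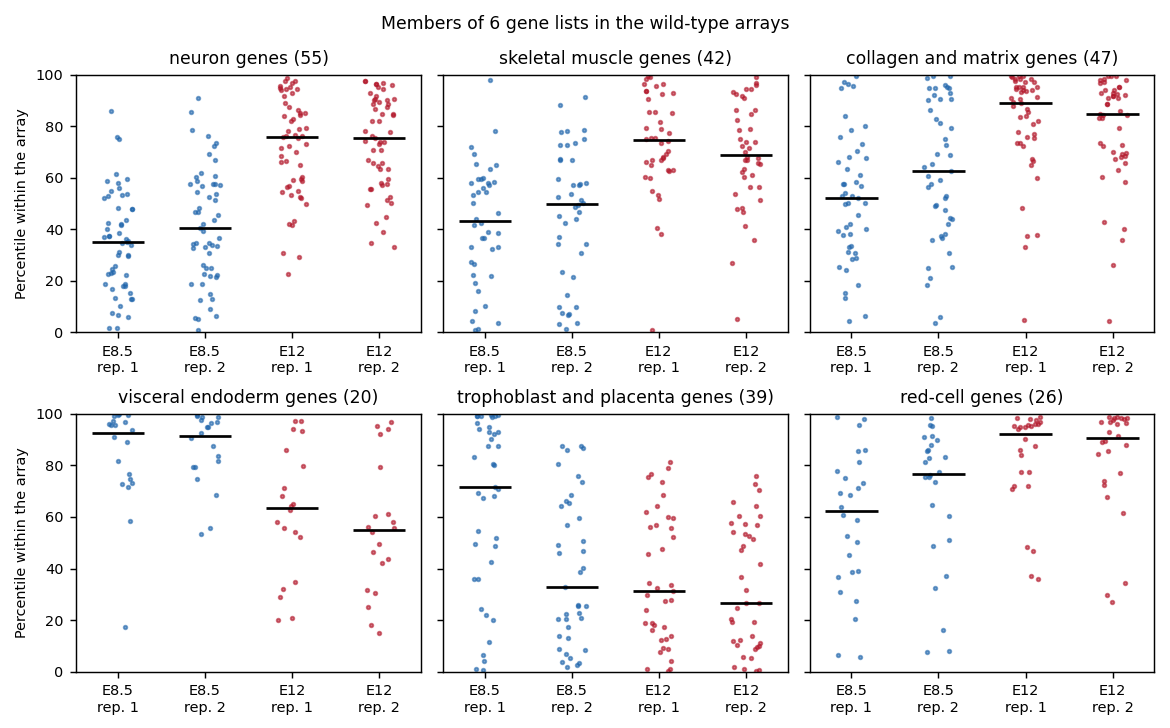
Percentile within the array (vertical axis) of the members of 6 gene lists in the 4 wild-type arrays, with 1 point per gene, blue for E8.5, red for E12, a black bar for the median and the number of genes measured in brackets. Neuron genes have medians of 35.1 and 40.6 at E8.5 and 75.7 and 75.3 at E12, visceral endoderm genes move the other way, and trophoblast genes stand at 71.5 in E8.5 replicate 1 and at 26.5 to 32.9 in the other arrays.

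Trophoblast and placenta genes were high in 1 array. Their mean log2 level was 7.46 in E8.5 replicate 1, 4.99 in E8.5 replicate 2, 5.15 and 5.0 in the E8.5 knockout arrays and 4.74 and 4.55 at E12. Plac1 read 13.30 and 8.48 at E8.5 and 5.65 and 5.31 at E12, and Plac8 read 12.40 and 8.35 against 5.47 and 5.67. Of 39 genes 6 fell and 2 rose, near the shares over all genes (14.6% and 8.73%). On both scales 4 fell and 0 rose, against 5.19% and 6.76% of all genes. Without E8.5 replicate 1, 4 fell and the median was -0.15, and without replicate 2, 22 fell and the median was -2.51. The list thus rested on replicate 1, and the part of trophoblast RNA in other genes that are high in that array alone was not tested. Cdx2 (-3.69) and Peg10 (6.29 and 6.09 against 3.86 and 3.71), an imprinted gene needed by the placenta, read alike in both E8.5 arrays or higher in replicate 2. Of 30 maternal decidua genes 8 rose and 1 fell, and 1 rose without E12 replicate 1. Those that rose include Dcn, Lum, Hoxa10 and Hoxa11, which the embryo's own connective tissue and trunk also use, and the one that fell was Prl8a2 (7.69 and 6.90 against 4.58 and 4.01), a prolactin-family gene of the decidua.

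Of 33 genes of the pluripotent and early embryo, 3 rose and 5 fell, 2 and 4 on both scales, which is near the shares over all genes (8.73% and 14.6%). L1td1, an RNA-binding protein of stem cells, read 9.41 and 9.11 at E8.5 and 3.60 and 4.25 at E12 (-5.34, SE 0.328, limma adjusted p = 0.000766), and the DNA methyltransferase Dnmt3b read 11.24 and 11.04 against 6.81 and 6.46. Zfp42 read 9.73 in E8.5 replicate 1 and 5.42 in replicate 2, and its call was lost after quantile normalization (adjusted p = 0.0516). Foxh1 (6.16 and 6.05 against 8.53 and 7.99), a partner of Nodal signalling, rose, with 1 of 3 probe sets of this sign. Without E8.5 replicate 2, 8 pluripotency genes fell. Around Lin28a, 4 of 20 genes of the Lin28 and let-7 pathway fell and 1 rose, all on both scales. Trim71, a let-7 target and RNA-binding protein, read 10.10 and 9.88 against 5.89 and 6.54, the transcription factor Hic2 read 9.61 and 9.41 against 7.00 and 6.63, and Dicer1, the enzyme that cuts microRNA precursors, read 9.15 and 9.64 against 7.44 and 7.55. E2f5 read 9.55 and 8.29 against 13.02 and 12.76, but 1 of 3 probe sets had this sign. The let-7 RNAs were not measured. Of 17 germ cell genes 2 fell, and 0 were called without any 1 of the wild-type arrays other than E8.5 replicate 2, without which 5 fell. The share of germ cell genes that fell was near that of all genes (14.6%). Rhox6 (12.54 and 7.80 against 5.09 and 5.22) was high in E8.5 replicate 1. Of 32 imprinted genes 2 rose and 7 fell, 2 and 3 on both scales, where 8.73% and 14.6% of all genes rose and fell on the deposited scale. Imprinted genes called lower numbered 2 without E12 replicate 1, and without E8.5 replicate 2, 6 rose. Nnat, a membrane protein of neurons, rose (4.95 and 6.75 against 8.53 and 8.68), and Meg3, a noncoding RNA, was called lower on the deposited scale only (11.62 and 13.06 against 9.82 and 10.76, adjusted p = 0.395 after quantile normalization).

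Lists of bright, ubiquitous genes were lower at E12 on the deposited scale and not on the other. Of 35 cytosolic ribosomal protein genes 27 were called lower and 0 higher with limma, with a median of -1.59, and after quantile normalization 0 were called in either direction and the median was -0.12. Their median percentile was 99.5, 99.6, 99.5 and 99.4 in the 4 arrays. Of 46 oxidative phosphorylation genes 19 were called lower on the deposited scale and 0 after quantile normalization. The brightest 10% of probe sets had a median of -1.17 on the deposited scale, so these medians are near that of other bright genes. Counts of lower genes fell to 3 in each of the ribosomal, oxidative phosphorylation and cell cycle lists without E12 replicate 1. Of 51 DNA replication and cell cycle genes 23 were called lower, and 3 of them on both scales. Orc1, which licenses origins, read 8.41 and 7.87 against 5.75 and 5.73, and Orc6 read 8.85 and 9.49 against 6.58 and 7.10, both lower on both scales. Cdkn2c, an inhibitor of cyclin-dependent kinases, was the 1 gene of that list that rose, at 6.33 and 4.87 against 7.21 and 6.99.

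Some glycolysis and chaperone genes fell on both scales. Of 34 glycolysis and hypoxia genes 14 fell on the deposited scale and 6 on both scales, and 4 rose, 2 on both. The glucose transporters Slc2a3 (13.63 and 13.57 against 9.01 and 9.10) and Slc2a1 (13.32 and 13.33 against 9.31 and 9.78) fell by 4.55 and 3.78, and after quantile normalization by 3.27 and 2.43 (limma adjusted p = 0.00121 and 0.00178). With Slc2a2, named above, 3 glucose transporter genes were lower. Epas1, a hypoxia-inducible factor (10.36 and 9.41 against 6.88 and 6.88), the oxygen sensor Egln3 (8.44 and 7.25 against 5.33 and 5.18) and Pfkp, a phosphofructokinase (9.48 and 8.18 against 6.65 and 6.12), fell on both scales, and Ldhb (9.38 and 9.88 against 10.44 and 11.17) and Hk1 (7.52 and 7.12 against 9.03 and 8.18) rose. Of 19 heat shock and chaperone genes 10 were called lower, 4 on both scales, namely Hspa1b (9.71 and 8.11 against 5.11 and 4.64), Hsp90b1, Hspa5 and Hspa9. The list's mean log2 level was 10.45 and 9.65 at E8.5 and 8.26 and 8.55 at E12. Its median difference after quantile normalization was -0.83. That median ran from -0.48 without E8.5 replicate 1 to -1.04 without E8.5 replicate 2. Of 31 immediate early genes 4 fell and 3 rose, 3 and 3 on both scales, near the shares over all genes (14.6% and 8.73%). Myc (9.32 and 8.25 against 6.37 and 5.85) and Klf6 (11.07 and 9.54 against 7.31 and 7.58) fell, and Jun (6.21 and 6.20 against 8.72 and 8.02) rose. Without E8.5 replicate 2, 11 immediate early genes fell, and without either E12 array 1 did, and without E12 replicate 1 the glycolysis and hypoxia count was 6.

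**Figure D4:**
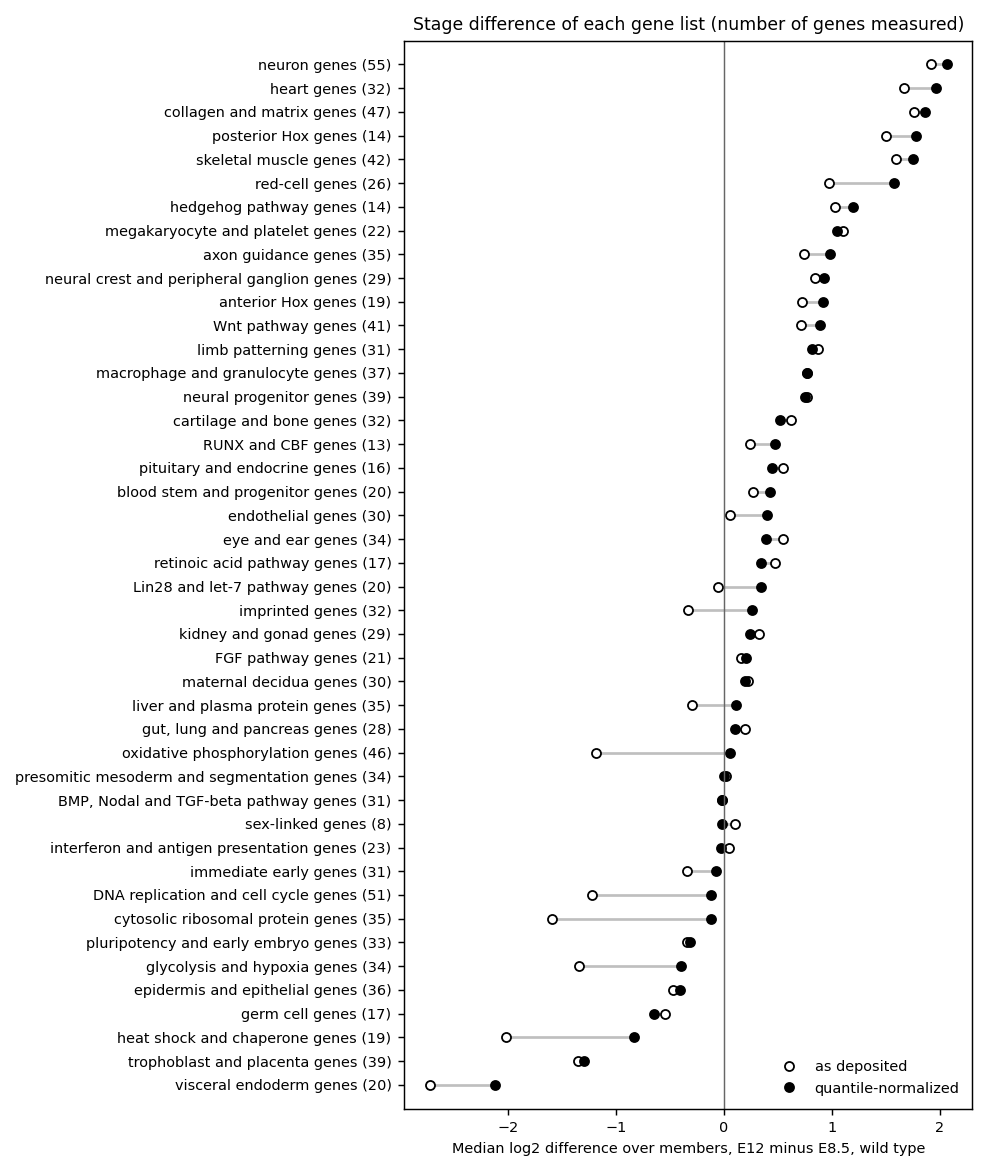
Median log2 difference between E12 and E8.5 in wild type (horizontal axis) over the members of each list of at least 8 measured genes, open for the deposited scale and filled for quantile-normalized values, with the number of genes in brackets. The neuron, heart and matrix lists lie between 1.67 and 2.06 on both scales, the visceral endoderm list lies at -2.72 and -2.12, and the ribosomal protein list moves from -1.59 to -0.12.

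Organ primordia added smaller counts, to be set against 8.73% of all genes higher and 14.6% lower, and 6.76% and 5.19% on both scales. Of 29 kidney and gonad genes 7 rose and 2 fell, 6 and 1 on both scales, with Tcf21 (4.06 and 4.78 against 7.16 and 6.81) and Six2 (4.96 and 5.04 against 7.49 and 6.73), factors of kidney mesenchyme, higher and the sialomucin Podxl (12.50 and 12.28 against 8.74 and 8.60) lower. Of 34 eye and ear genes 10 rose, 7 on both scales, and none fell. Mab21l1 (3.22 and 3.10 against 6.52 and 6.68) and Mab21l2 (4.79 and 4.54 against 8.4 and 7.87), which are needed for the eye, led them. Of 16 pituitary and endocrine genes 5 rose, 3 on both scales, among them Tbx19 (4.52 and 4.31 against 7.47 and 6.29) and the hormone precursor gene Pomc (5.79 and 5.66 against 7.09 and 6.73) that it regulates, the latter with 1 of 2 probe sets of this sign. Without E12 replicate 1 the counts of higher genes were 5, 3 and 1 for the kidney, eye and pituitary lists, and without E8.5 replicate 2 they were 10, 4 and 2. Of 23 interferon and antigen presentation genes and 8 sex-linked genes, limma called 0 on either scale. The 2 interferon genes with the highest absolute t were H2-D1 (-0.68, adjusted p = 0.127) and Bst2 (-1.40, adjusted p = 0.138).

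The knockout embryos were compared between the same stages. Limma called 44.2% of probe sets (51.8% of genes) there, where the replicates were closer together. Of the 1230 genes higher on both scales in wild type, 1226 had the same sign in the knockout arrays and 1186 were called. Both comparisons take their spread from 1 fit over all 8 arrays, so the calls in knockout are a description and no independent support. All 944 genes lower on both scales had the same sign, and 936 were called. Cubn read 13.29 and 13.35 in the E8.5 knockout arrays and 4.26 and 3.93 at E12, and Zic1 read 2.87 and 2.99 against 9.47 and 9.72. The megakaryocyte and platelet list had a median stage difference of 0.24 in knockout and 1.10 in wild type. For the macrophage and granulocyte list these medians were 0.30 and 0.77, and the difference of the lists between genotypes was not tested. Among single genes the exceptions by test were 2 blood genes. Pf4 read 5.0 and 5.0 in the E8.5 knockout arrays and 4.86 and 4.82 at E12, so its stage difference was -0.16 in knockout and 5.37 in wild type. The difference between these was -5.53 (SE 0.288, adjusted p = 0.00663). Ctss read 4.46 and 4.47 against 4.50 and 4.59, and its stage difference was lower in knockout by -3.43 (SE 0.245, adjusted p = 0.032). These 2 were the only probe sets of 45037 called in the test of that difference (0.00444%), and 792 had an unadjusted p below 0.05. Without E8.5 wild-type replicate 2 the count was 296, and without any other single array it was 0 or 1. With the replicate number as a block limma called 0, so the calls for Pf4 and Ctss were lost.

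**Figure D5:**
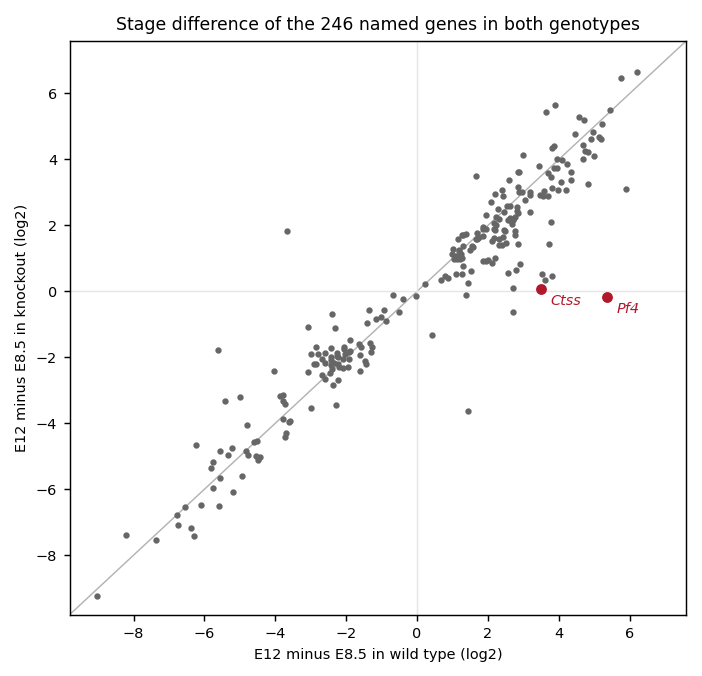
Stage difference in log2 intensity, E12 minus E8.5, of the 246 named genes in wild type (horizontal axis) and in knockout (vertical axis), with 1 point per gene and a grey line where both are equal. Most points follow the line, and Pf4 and Ctss, in red, lie at 5.37 and 3.51 in wild type and at -0.16 and 0.08 in knockout.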

How the data were processed

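RNA of whole embryo propers was measured on Affymetrix mouse whole-genome arrays after T7-based amplification. The deposited values are linear intensities per probe set, made by the authors with Robust Multi-array Analysis, and whether all 8 arrays were normalized together is not given in the sources used here. Control probe sets were left out and log2 of the intensity was taken. Array number limits the precision, with 2 arrays per group. Limma 3.58.1 in R 4.3.3 was fitted to all 8 arrays with 1 mean and 1 variance factor per group, and p-values were adjusted over 45037 probe sets (Benjamini-Hochberg). The script was tested on simulated data. The probe set with the highest mean stood for a gene. Within-array percentiles and quantile-normalized values were computed beside the log2 values. The text names the 15 largest increases and decreases called with groups that do not overlap, up to 5 called members per direction of 46 gene lists (or 2 members by absolute t where none was called), the 5 lowest p-values for the difference between genotypes, Runx1 and the sex-linked genes. The comparison, lists and members were chosen with earlier results of these data known. Columns of no sample numbered 0. Alternatives were other scalings, no weights, wild-type arrays alone, log2(intensity + 16), no dim probe sets, 1 probe set per gene, another variance prior, a replicate block and each array left out.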

Additional observations from a re-analysis of the deposited data

Results flagged for a closer look

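The stage difference of 2 genes differed between wild type and knockout by limma's test of that difference. For Pf4 it was lower in knockout by -5.53 on the log2 scale (SE 0.288, adjusted p = 0.00663), and both wild-type E12 arrays, at 10.31 and 10.79, lay above the other 6 arrays. For Ctss it was lower by -3.43 (SE 0.245, adjusted p = 0.032), with 7.86 and 7.80 in the wild-type E12 arrays. Neither gene was called with the replicate number as a block.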

How the results depend on the processing

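Counts of probe sets called between the stages in wild type moved most with the samples and the scaling. Instead of 7971, limma called 12525 without array weights, 2061 in the 4 wild-type arrays alone, 5032 after quantile normalization, 3377 on rank scores, 4318 of the genes with 1 probe set each and 388 after quantile normalization in the wild-type arrays alone. Higher calls were 5463 without weights, 792 in the wild-type arrays alone, 1967 on rank scores, 1497 without dim probe sets, 1575 with 1 probe set per gene and 245 with the quantile scale and wild-type arrays alone. Lower calls were 1269 in the wild-type arrays alone, 2257 and 1410 on the quantile and rank scales, 2743 with 1 probe set per gene and 143 with the quantile scale and wild-type arrays alone. At the study's threshold 5614 passed without dim probe sets and 4942 with 1 probe set per gene. In knockout 11539 were called without weights and 9737 with 1 probe set per gene. The difference between genotypes gave 1 call on rank scores and without dim probe sets, 9 with a trend and robust prior and 0 with a replicate block.

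Leaving out 1 array, on either scale, gave 1305 to 7158 calls, 841 to 2545 of them higher and 438 to 4675 lower, 5944 to 10842 at the study's threshold, 13125 to 20561 in knockout and 0 to 296 for the difference between genotypes. The lowest count, 1305, came without E12 wild-type replicate 1 on the quantile scale, and 296 came without E8.5 wild-type replicate 2. The lone array was taken to vary like its group.

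The deviations of same-numbered arrays correlated at r = 0.372 between genotypes at E8.5 and 0.173 at E12. Between the stages they correlated at r = 0.0756 in wild type and -0.105 in knockout. The Gapdh control probe sets parted by replicate number. Their 3′ end exceeded their 5′ end by 2.16 to 2.38 (log2) in replicate 1 arrays and 2.56 to 2.65 in replicate 2. For actin this gap was larger in replicate 2 at E8.5 and smaller at E12. What the replicate number stands for was not tested. With the number as a replicate block 8114 probe sets were called in wild type and 18508 in knockout. Of the 246 named genes, 227 kept their side of the threshold under the block and 19 lost their call, and 199 kept it after quantile normalization.

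Among named genes, 9 changed sign under some alternative, and the cause was not tested. Hbb-bh1 was 0.45 after quantile normalization in all and in wild-type arrays alone and 0.13 on rank scores. With 1 array left out, the values ran from -1.76 to 1.31 for Hbb-bh1, from -0.64 to 5.13 for Hbb-y, from -1.94 to 0.09 for Atp2a2, from -2.77 to 0.01 for Meg3, from -2.29 to 0.05 for Rps10, from -1.24 to 0.16 for Tle3, from -0.22 to 0.04 for Tsix, from -1.8 to 4.78 for Eif2s3y and from -1.34 to 2.14 for Kdm5d.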
